A study of Mus musculus with 8 samples.

Results

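The genes described here are Csf1, Csf2, Csf3, Il34 and Kitl, which encode 5 growth factors of blood and immune cells, and the RelA peaks around them. They were taken by name, and each peak whose centre lay inside a gene or within 50 kb of either end was assigned to it, which gave 16 peaks among the 9829 of the whole list and 5 genes among 21521 protein-coding genes. RelA (p65), a subunit of the transcription factor NF-kB that activates transcription, had been located on chromatin by ChIP-seq, in which DNA bound by a protein is pulled down with an antibody and sequenced. The cells were primary fibroblasts from embryos of the mouse strain C57BL/6, with the wild-type genotype. The fibroblasts had been starved of serum overnight before they received TNF, a cytokine that activates NF-kB. Of the 8 libraries, 2 RelA ChIP libraries came from each of 0 h, 0.5 h and 3 h of TNF at 10 ng/ml, and 2 were input DNA. All cells were wild type and serum-starved, and the labels do not say whether libraries of a time came from separate embryos or cultures. The measurements are the start and end of each peak on the mouse genome build mm10, in 1 list for the series. Which libraries the list was called from is not stated. No height or library was attached to a peak, so times, replicates and input could not be compared, the depth was unknown, and the values below are descriptions of position with no test. Peaks do not measure expression, so the fibroblast label could not be checked against marker genes.

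Colony-stimulating factors make blood progenitors divide and mature. Csf1 (M-CSF) and Il34 (interleukin-34) bind the same receptor, Csf1r, and keep macrophages and microglia alive. Csf2 (GM-CSF) acts on granulocytes, macrophages and dendritic cells, Csf3 (G-CSF) on neutrophils, and Kitl (stem cell factor) on blood stem cells, mast cells, melanocytes and germ cells through the receptor Kit. Fibroblasts are a known source of several of these factors. In unstimulated cells NF-kB is held in the cytoplasm, and after TNF it enters the nucleus and binds short DNA elements called kappaB sites.

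The promoters of 3 of the genes are shown first, because the Csf1 promoter lay under a peak while those of Csf2 and Kitl did not. Each is the 250 bases before the start site in RefSeq (GRCm38.p6), 5′ to 3′ on the gene's strand, at chr3:107760470-107760719 (minus strand) for Csf1, chr11:54249900-54250149 (minus strand) for Csf2 and chr10:100015571-100015820 (plus strand) for Kitl. Capitals mark bases that match the kappaB consensus, a motif of 10 bases searched on both strands.
Csf1: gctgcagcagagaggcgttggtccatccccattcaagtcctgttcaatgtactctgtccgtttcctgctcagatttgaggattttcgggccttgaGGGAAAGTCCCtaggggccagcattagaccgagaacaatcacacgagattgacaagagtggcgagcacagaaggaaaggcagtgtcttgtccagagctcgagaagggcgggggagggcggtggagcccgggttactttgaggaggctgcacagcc
Csf2: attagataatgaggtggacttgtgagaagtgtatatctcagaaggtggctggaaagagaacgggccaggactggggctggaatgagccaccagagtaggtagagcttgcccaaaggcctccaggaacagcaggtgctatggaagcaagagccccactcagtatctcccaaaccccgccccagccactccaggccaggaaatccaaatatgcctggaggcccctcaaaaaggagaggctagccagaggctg
Kitl: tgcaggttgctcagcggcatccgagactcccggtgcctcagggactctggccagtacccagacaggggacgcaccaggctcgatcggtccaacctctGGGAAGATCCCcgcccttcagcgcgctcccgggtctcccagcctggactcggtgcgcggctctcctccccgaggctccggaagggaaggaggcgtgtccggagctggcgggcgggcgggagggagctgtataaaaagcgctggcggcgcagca

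In the Csf1 promoter, 3 overlapping matches covered 11 bases, from -155 to -145 relative to the start site (chr3:107760614-107760624). A peak from 107759978 to 107760814 covered the whole Csf1 promoter window, with its centre 223 bp from the middle of these bases. Of the 3 genes with a promoter window in the table (250 bases before to 50 after the start site), 1 had a window overlapped by a peak, and of all protein-coding genes with such a window 5.59% did. On the gene's strand GGAAAGTCCC matched, and on the opposite strand GGGACTTTCC, the same 10 bases read the other way, and GGACTTTCCC, set off by 1 base. Counted on either strand, GGAAAGTCCC stood in 51 of 32851 promoter windows (0.155%) and GGACTTTCCC in 48 (0.146%). The Kitl promoter also held 3 overlapping matches, over 11 bases from -153 to -143 (chr10:100015668-100015678), but the nearest peak centre was 314 kb away. They were GGAAGATCCC on the gene's strand, and on the opposite strand GGGATCTTCC, the same 10 bases, and GGATCTTCCC, again set off by 1 base. GGAAGATCCC stood in 44 of the 32851 windows (0.134%) and GGATCTTCCC in 29 (0.0883%). The Csf2 window held no match, and the nearest peak edge was 1.72 kb from it. A kappaB match was present in 713 of 1353 promoter windows overlapped by a peak (52.7%), in 8090 of 31498 windows without one (25.7%), and in 26.8% of all windows. The matches at Csf1 and Kitl thus stood at nearly the same distance from the start site used, with a peak over the one and none near the other. For Kitl that start site, 100015821, lies inside the gene, which begins at 100015615. The Kitl matches are therefore inside the gene as annotated, whereas those at Csf1 lie upstream of it. Csf3 and Il34 had no entry in the promoter table.

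The genes fell into 3 with a series of peaks and 2 with none. Il34 had 8 peaks within 50 kb, Csf1 and Csf2 had 4 each, and Csf3 and Kitl had 0. Counted as genes, 3 of 5 (60%) had a peak inside or within 50 kb, and 43.2% of all protein-coding genes did. Within 10 kb the same 3 genes had a peak, 60% against 23.1% of all protein-coding genes. At least 4 peaks within 50 kb were found at 3.12% of protein-coding genes, and at least 8 at 0.158%. A longer gene searches more sequence, so the counts were also divided by the length searched. Il34 had 4.87 peaks per 100 kb, Csf2 3.9 and Csf1 3.35, where the median protein-coding gene had 0 and the upper quartile was 0.889. Only 0.121% of protein-coding genes were at least as dense as Il34, 0.409% as Csf2 and 1.01% as Csf1. The count and density at Il34 are not particular to it, because the neighbouring and shorter gene Sf3b3 had the same 8 peaks in its window. With 4 peaks each, Csf2 stood above Csf1 in density only because it is the shorter gene, the shortest of the 5.

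**Figure D1:**
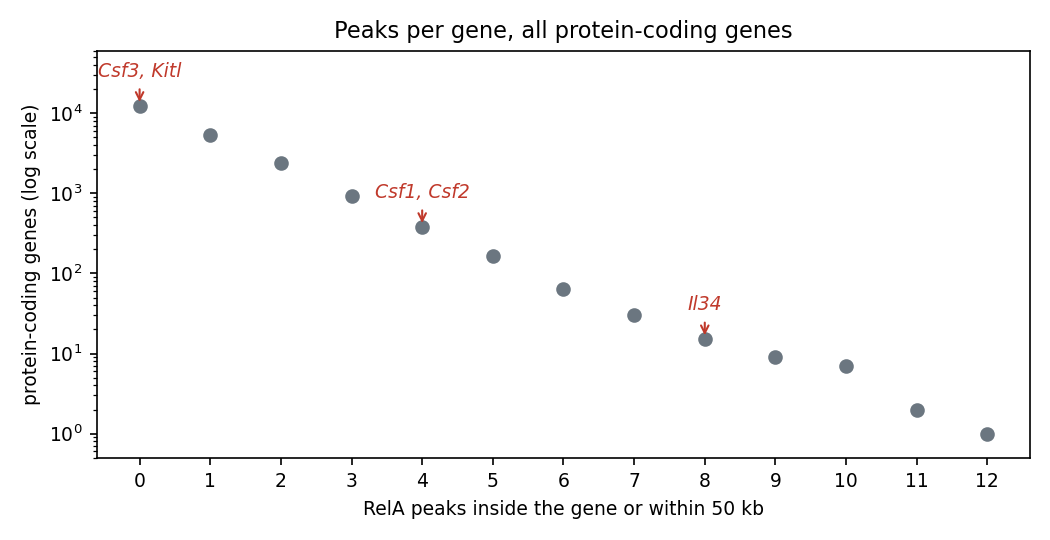
Number of protein-coding genes (log scale) by the number of RelA peaks inside the gene or within 50 kb, with arrows at the 5 growth factor genes. Csf3 and Kitl stand with the 12226 genes at 0 peaks, Csf1 and Csf2 with the 377 genes at 4, and Il34 with the 15 genes at 8.

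Csf1 lies on chromosome 3 from 107741048 to 107760469, on the minus strand, so its start site is the upper end. The peak at the start site was 837 bp wide and its centre lay 0.073 kb from that site, inside the gene. A further 2 peaks lay upstream, at 15.7 and 33.1 kb from the start site, and were 1219 and 898 bp wide. The remaining peak, 536 bp wide, lay 16.7 kb downstream of the start site and 2.77 kb from the other end of the gene. Within the 50 kb window the 4 peaks were spaced almost evenly, with 16.6, 15.7 and 17.5 kb between neighbouring centres. The widest, at 107775531 to 107776749, was not the one at the promoter, and 2.42% of all peaks in the list were as wide or wider. Csf1 was the nearest protein-coding gene to all 4 peaks, and for 3 of them it was the only one within 50 kb. The fourth was also 47.3 kb from Ahcyl1, which encodes a relative of adenosylhomocysteinase. All 4 lay within the span of Gm40121, a long noncoding RNA gene that overlaps Csf1 and is named here after its values were seen. Beyond the 50 kb window, 2 more peaks lay at 61.9 and 90.1 kb from Csf1, both nearer to Eps8l3. The even spacing did not continue there, as the peak at 61.9 kb had no other centre closer than 28.2 kb.

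Il34, on chromosome 8 from 110741829 to 110805949, had the most peaks. Inside the gene lay 5 of the 8, with centres 31.7, 12.7, 11.2, 5.05 and 2.68 kb from the nearer end, which was the upper end for all 5. Another 2 lay 2.77 and 4.13 kb beyond the upper end, and the last 24.7 kb beyond it. The peak at 31.7 kb was near the middle of the gene, 32.4 kb from the lower end. The others were gathered towards the upper end or beyond it, and none lay in the 50 kb below the lower end. The 6 peaks from 110792827 to 110810403 had their centres within 16.8 kb, with 3 close pairs 1.48, 2.38 and 1.36 kb apart. Over the assembled chromosomes, 2.38% of peaks had another centre within 2 kb and 15.7% within 10 kb. Runs of consecutive peaks, a measure chosen after these positions were seen, were then ranked by span over the whole list. The run of 6 at Il34 was the shortest of 9723 overlapping runs of 6, whose median span was 876 kb, and the shortest elsewhere, 26.2 kb, was nearest to the chemokine gene Ccl2. For runs of 7 the Il34 region was again first, at 35.8 kb, with 58.8 kb near Nfkbia next among other regions. For shorter runs it ranked 15 of 9783 runs of 3 (6.8 kb), 4 of 9763 runs of 4 (9.18 kb) and 2 of 9743 runs of 5 (15.3 kb), and the shortest such runs elsewhere, all nearest to the adhesion gene Icam1, spanned 2.14, 4.67 and 9.98 kb. The 3 close pairs were separated by gaps of 744, 1778 and 575 bp, and with gaps of up to 1 kb closed, 6 peaks were left at Il34. The ranks of the runs count these pairs as separate peaks and are not given here for merged peaks. Whether a close pair is 1 broader region of signal divided by the peak caller was not tested.

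The Il34 peaks were also within reach of neighbouring genes. All 8 lay within 50 kb of Sf3b3, which encodes a splicing factor subunit and lies 4.54 kb above Il34, 5 lay within 50 kb of Cog4, a gene of Golgi transport, and 1 within 50 kb of Mtss2, which lies 0.428 kb below Il34 and encodes an actin-binding protein. Vac14, 21.4 kb below Il34, had none. By the nearest gene, 5 of the 8 peaks belonged to Il34 and 3 to Sf3b3, since the 2 peaks between the genes lay 1.78 and 0.416 kb from the end of Sf3b3 and 1 lay inside it. That end is the far one from the start of Sf3b3, which RefSeq places on the minus strand at 110846803. The Il34 peak nearest to this start site was 16.1 kb away, and the nearest to a Cog4 start site 15.9 kb. The start site in the table nearest to the 6 clustered peaks was that of Gm15895, a long noncoding RNA gene at the upper end of Il34, named here after its values were seen, at 1.92 to 11.9 kb. None of the 8 peaks overlapped a promoter window of the table, which holds none for Il34 itself.

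**Figure D2:**
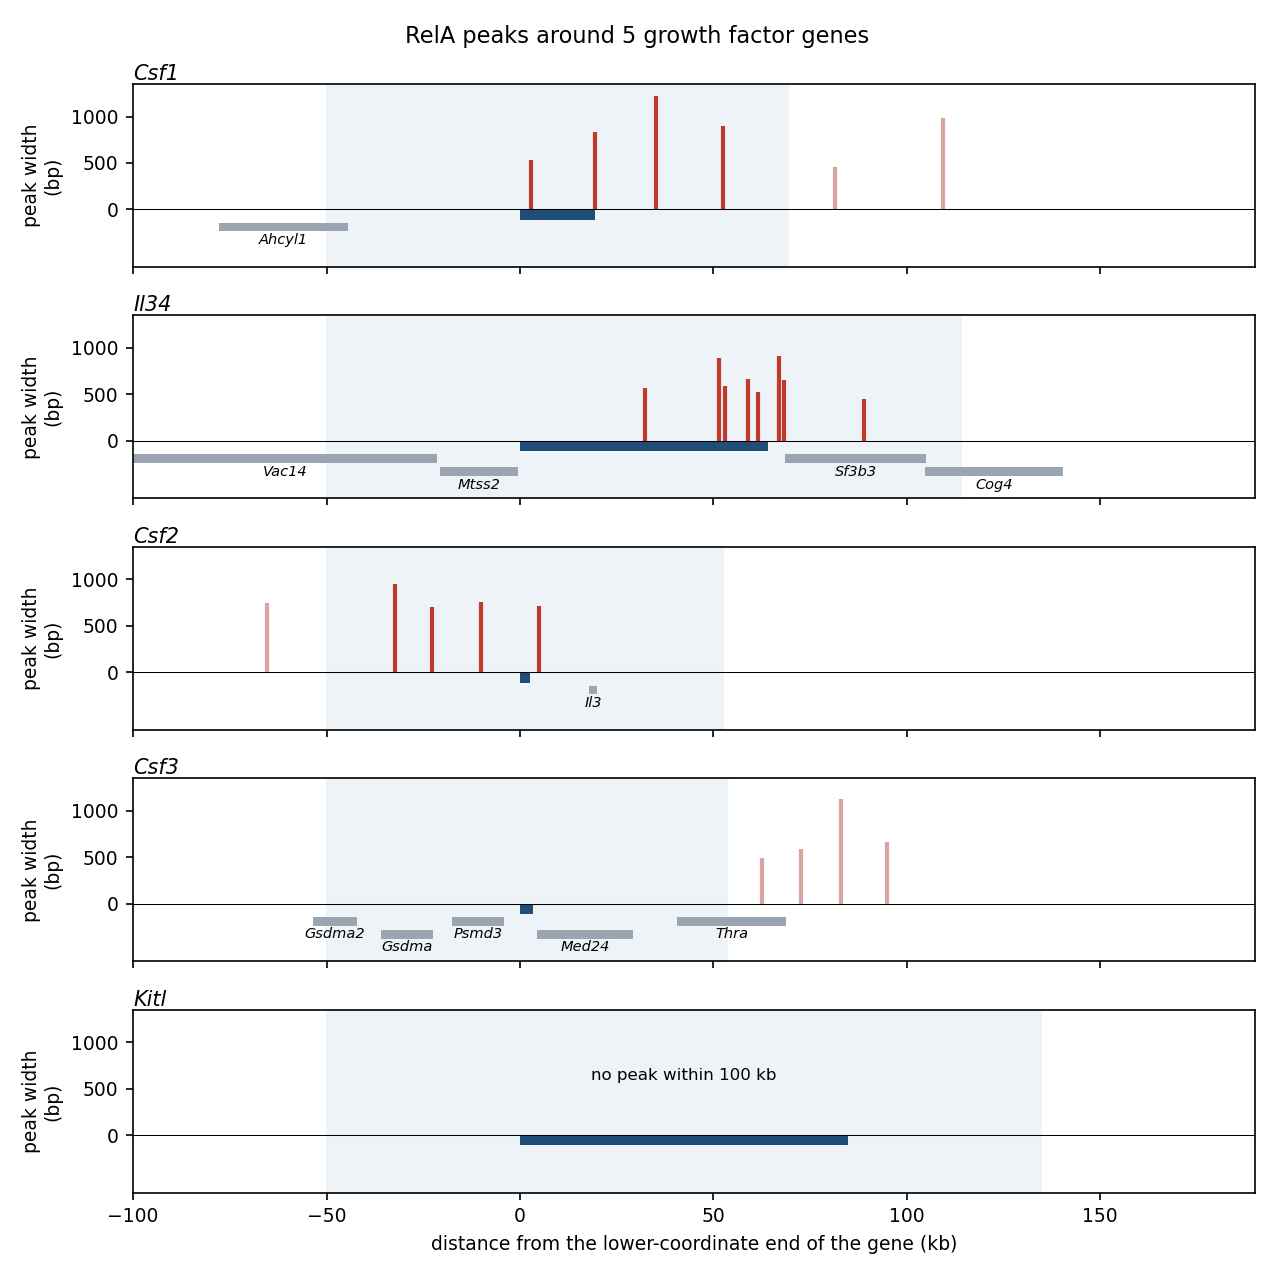
RelA peaks around the 5 genes, as lines at the peak centre whose height is the peak width in bp, against the distance in kb from the lower-coordinate end of the gene (dark bar). Dark red lines lie in the shaded window of 50 kb on each side and pale ones outside it, and grey bars are protein-coding genes that lie within 50 kb of the gene or share a peak with it. Most peaks of Il34 crowd at its upper end, and those of Csf1 inside the window are almost evenly spaced. Csf2 has 3 on its lower side, and the windows of Csf3 and Kitl are empty.

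Csf2, on chromosome 11 from 54247270 to 54249899, is also on the minus strand. It had no peak inside it, and its nearest peak, at 54251864 to 54252577, was centred 2.32 kb upstream of the start site. The other 3 lay beyond the opposite end, 10.0, 22.6 and 32.4 kb from it. Of the 4 peaks, 3 also lay within 50 kb of Il3, which encodes interleukin-3, another growth factor of myeloid cells, and lies on the same strand 15.2 kb above Csf2. Each of these peaks was closer to Csf2: the upstream peak was 12.9 kb from the nearer end of Il3, and the other 2 were 27.8 and 40.4 kb away. All 3 peaks of Il3 were thus also peaks of Csf2, which had 1 more. Widths were 714 bp for the upstream peak and 753, 700 and 946 bp for the others, all above the list median of 687 bp. All 4 lay within the noncoding gene Gm12223, which spans Csf2 and is named here after its values were seen. For the 3 peaks beyond the opposite end, the nearest start site was that of a noncoding gene, not of Csf2. It was 4933405E24Rik, also named after its values were seen, at 1.61 kb for the peak at 32.4 kb and 11.4 kb for that at 22.6 kb. For the peak at 10.0 kb it was Gm12223, at 5.47 kb.

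Csf3 and Kitl had no peak in their windows, but differed in the distance to the nearest one. Around Csf3 (chromosome 11, 98700183 to 98703631) the nearest peak was 59.2 kb away, just outside the 50 kb limit, inside the thyroid hormone receptor gene Thra. Within 100 kb there were 4 peaks, at 59.2, 69.2, 79.7 and 91.4 kb, all on the same side and each nearer to Thra, the clock gene Nr1d1 or Msl1 than to Csf3. Med24, a Mediator subunit gene 0.966 kb from Csf3, had 2 of them in its own window, and Psmd3, a proteasome subunit gene 4.21 kb away on the other side, had 0. By comparison, the median protein-coding gene lay 70.8 kb from its nearest peak (quartiles 19.7 and 205 kb). Kitl (chromosome 10, 100015615 to 100100416) was 314 kb from its nearest peak, and 82.7% of protein-coding genes were as close or closer to one. No peak lay within 100 kb of Kitl, the longest of the 5 genes at 84.8 kb. Without a depth or a peak height, weaker binding at either gene was not detectable here.

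The peaks of Csf1, Il34 and Csf2 differed in width as well. The 16 peaks had a median width of 707 bp and a range of 450 to 1219 bp, beside a median of 687 bp and quartiles of 587 and 816 bp in the whole list. At Csf1 3 of 4 were wider than the list median (median 868 bp), at Csf2 4 of 4 (median 734 bp), and at Il34 2 of 8 (median 624 bp). Il34 thus combined the most peaks with mostly narrow ones, summing to 5262 bp against 3490 bp at Csf1 and 3113 bp at Csf2. This contrast depends on counting as separate the Il34 pairs with gaps of 744 and 575 bp. Of the 16 peaks, 12 had another protein-coding gene within 50 kb, 8 of them at Il34, and in the whole list 48.8% of the peaks within 50 kb of any protein-coding gene had more than 1. Inside their gene lay 7 of the 16 peaks, 2 at Csf1 and 5 at Il34, so that 2 of the 5 genes held a peak, against 14.6% of all protein-coding genes.

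**Figure D3:**
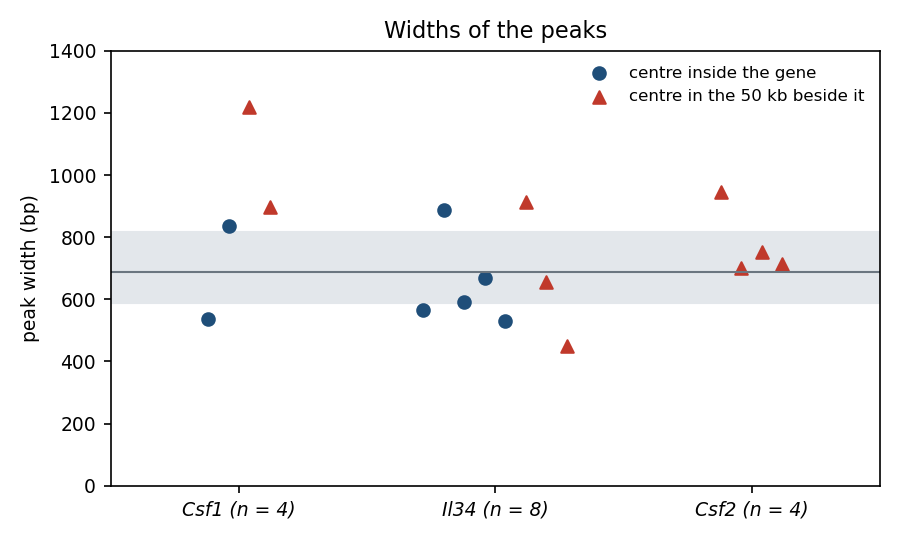
Width in bp of each RelA peak within 50 kb of Csf1, Il34 and Csf2, in order of position, with circles for centres inside the gene and triangles for centres beside it. The line is the median of all 9829 peaks, 687 bp, and the band their quartiles, 587 to 816 bp. Csf1 has the widest peak, 1219 bp, while 6 of the 8 peaks of Il34 lie below the line.

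Genes that act with these factors were then described by role, from a list of 25 genes. Of 8 genes for receptors and binding partners, 1 had a peak inside or within 10 kb (12.5%) and 3 within 50 kb (37.5%), where 23.1% and 43.2% of all protein-coding genes did. These counts are near the shares of all genes and are not a result about the receptors. Sdc1, a syndecan to which interleukin-34 can bind, had its nearest peak at 8.31 kb. Csf1r, the shared receptor of Csf1 and Il34, had 2 peaks within 50 kb, at 16.5 and 30.8 kb, of which the first was marginally nearer to Hmgxb3 (16.3 kb) and the second nearer to Pdgfrb (10.3 kb), a growth factor receptor gene of mesenchymal cells. Kit, the receptor for Kitl, had 1 peak at 29.7 kb and was the only protein-coding gene within 50 kb of it. The receptor genes of GM-CSF, Csf2ra, Csf2rb and Csf2rb2, lay 326, 99.2 and 144 kb from a peak. The G-CSF receptor gene Csf3r lay 57.6 kb away, and Ptprz1, a phosphatase that can bind interleukin-34, 54 kb. Among these receptor genes, the nearest peak was thus farther than at Csf1, Csf2 and Il34 in each case.

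Among 7 other haematopoietic growth factor genes, 1 had a peak inside or within 10 kb (14.3%) and 4 within 50 kb (57.1%), also beside 23.1% and 43.2% of all protein-coding genes. Il7, a lymphocyte growth factor, held a peak of 1196 bp, 0.854 kb from its end and with no other protein-coding gene within 50 kb. The peaks of Il3 were those of Csf2. Both peaks of Il5, an eosinophil factor, were nearest to the transcription factor gene Irf1, and the peak of Flt3l, a dendritic cell factor, was nearest to Rcn3. Il11, Epo and Thpo had no peak within 50 kb. Of 10 genes for signalling proteins below these receptors, 5 had a peak inside or within 10 kb (50%) and 10 within 50 kb (100%), where 23.1% and 43.2% of all protein-coding genes did. The lengths searched ran from 111 kb for Shc1 to 327 kb for Gab2, and a longer search meets more peaks. Per 100 kb, 5 of the 10 lay below the upper quartile of all protein-coding genes, 0.889 peaks: Jak2 with 0.62, Gab2 with 0.611, Stat5b with 0.561, Cbl with 0.523 and Inpp5d with 0.5. Pik3r1, a regulatory subunit of PI3-kinase, and Jak2, the kinase of the GM-CSF receptor, had peaks at 0.379 and 0.564 kb from a gene end. Grb2, an adaptor of Kit and Csf1r, and Stat3, a transcription factor downstream of the G-CSF receptor, had 4 peaks each within 50 kb, and Cbl, a ubiquitin ligase for Kit and Csf1r, held 1. Stat5a and Stat5b reached their count through peaks inside the neighbouring Stat3, and for Shc1, Gab2 and Inpp5d every peak was nearer to another gene. Across the 3 roles, 8 of the 25 genes were the nearest protein-coding gene of a peak in their window. Signalling proteins of this kind also serve many other receptors.

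**Figure D4:**
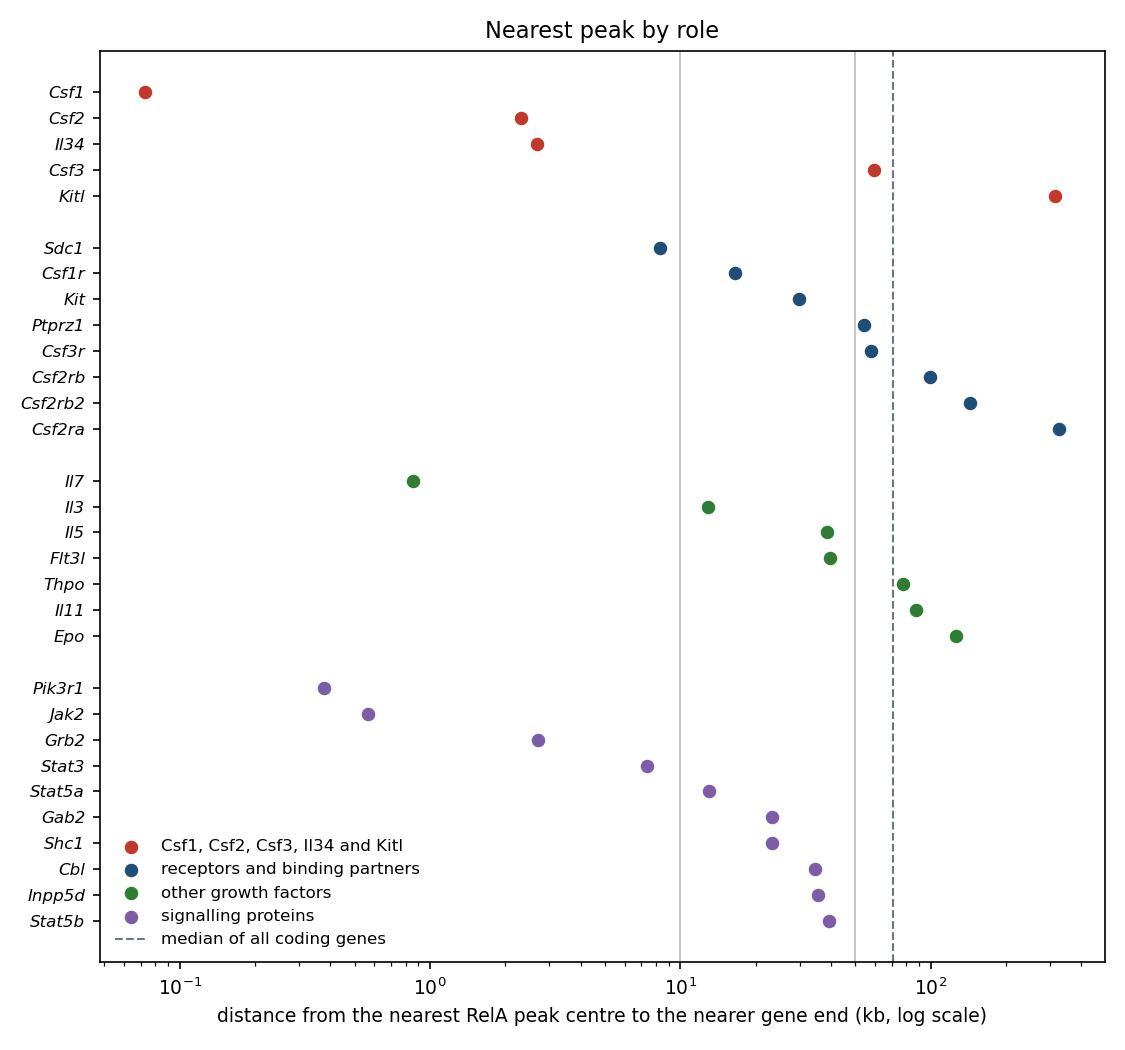
Distance in kb (log scale) from each gene's nearer end to the nearest RelA peak centre, for the 5 growth factor genes and 25 related genes by role, with grey lines at 10 and 50 kb and a dashed line at the median of all protein-coding genes, 70.8 kb. Csf1 is the closest of the 30 at 0.073 kb, and Csf2ra, at 326 kb, the farthest.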

How the data were processed

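RelA ChIP-seq libraries (2 each at 0, 0.5 and 3 h of TNF) and 2 input libraries were grouped by their titles. The authors deposited 1 list of peaks in 3 columns, the chromosome, start and end in base pairs, with no depth, height or sample. Per the labels' protocols, chromatin was fixed with disuccinimidyl glutarate and formaldehyde, which can also hold proteins bound through other proteins, and sonicated. The submitters' processing notes name the genome mm10 and the tools MACS2, Bowtie2 2.3, cutadapt 1.9.1, Picard 1.13, SAMtools and deepTools. The peak threshold, the use of input and any pooling were likewise not given in the sources used here.

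Starts were converted to positions counted from 1. Genes came from a RefSeq table of the GRCm38.p6 assembly, which has the coordinates of mm10. It holds 49209 genes on chromosomes 1 to 19 and X, without exons or strand, and 345 entries on scaffolds were left out. All 5 growth factor genes and all 25 related genes matched by symbol. Strands, start sites and promoter sequences came from a RefSeq promoter table, which held 3 of the 5. Distances run from the peak centre to the nearer gene end. Percentages over all genes are backgrounds without a test. The counting was tested on simulated data. Python 3.11.15, numpy 2.4.6, pandas 2.3.3 and matplotlib 3.10.9 were used.

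The genes, lists and alternatives were chosen with earlier results of these data known. Named genes were the 5 factors, each protein-coding gene nearest to one of their peaks, related genes within 10 kb of a peak, and Csf1r, Kit and Il3. Other genes were named after their values were seen. Alternatives changed the window, the width filter, the assignment of peaks and the merging of close peaks.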

Additional observations from a re-analysis of the deposited data

How the results depend on the processing

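Of 67 values recomputed under the alternatives, 55 moved by no more than 1.5 times and 12 by more. The 55 include values of 0 at Csf3 and Kitl that a narrower window or a stricter filter could not change. The tally therefore does not measure how stable the results are. The count of genes with a peak within 10 kb was within that limit under every alternative run, but it did change. With a window of 1 kb it fell from 3 to 2, exactly at the limit, because the nearest peak to Csf2 was 2.32 kb away. Narrowing the 50 kb window to 10 kb left 2 peaks at Csf1 and 1 at Csf2. Widening it to 100 kb gave Csf3 4 peaks (1.97 per 100 kb) and lowered the density to 3.03 per 100 kb at Il34 and 2.47 at Csf2. With peaks inside the gene left out, 2 remained at Csf1 and 3 at Il34. Il34 was left with 5 when each peak went to its nearest protein-coding gene, and with 2 when peaks below the median width were dropped, fewer than the 3 of Csf1 and the 4 of Csf2 under the same filter. Measured from the peak edge, the nearest peak to Csf1 was at 0 kb, and among wider peaks the nearest to Kitl was at 1689.7 kb. No paired analysis was possible because the list holds no values per library, and for the same reason no library could be left out. Depth is unknown, so a gene without a peak cannot be told apart from one whose binding was too weak to be called.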
